A study of Mus musculus with 9 samples.

Results

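The microRNA miR-31 was described from small RNA libraries of mouse back skin, through the 2 rows of the deposited table that hold its arms, mmu-miR-31-5p and mmu-miR-31-3p, written here as miR-31-5p and miR-31-3p. These 2 rows were taken by name out of 1129, and both were among the 447 rows that passed the filter on low counts. All 9 libraries came from adult female C57BL/6 mice, a common inbred strain, labelled as 6 months old, whose back was wounded with a punch of 8 mm diameter under anesthesia with pentobarbital sodium. Day 0 skin was the disc cut out by the punch (3 libraries), and the day 7 wound edge was skin taken around the wound 7 days later (3 libraries). The 3 libraries of the diabetic mouse model carry labels that disagree: the titles read T7, the table's columns read T0, and the treatment text describes the disc cut out by the punch. When the diabetic skin was taken is therefore not settled here, and for that group the diabetic model and the day cannot be told apart. The labels name neither the way diabetes was produced nor the animal behind each sample, so the p-values reflect only how these samples vary, which may be technical variation.

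miR-31 is cut from a hairpin precursor whose stem gives a 5p and a 3p strand. The 5p strand is generally the guide, the strand kept in the silencing complex to repress mRNAs matching its seed, and the 3p strand is mostly the passenger strand that is degraded. In skin, miR-31 is known from keratinocytes, where NF-kB and STAT3 signalling raise it in wounds and in psoriasis, and where the guide promotes proliferation and migration, in human keratinocytes through repression of EMP1.

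Both mature strands and the hairpin are shown because the results below turn on the difference between the arms. The mature sequences are from RefSeq on GRCm38.p6, written 5′ to 3′, with the seed (bases 2 to 8) in capitals.
miR-31-5p: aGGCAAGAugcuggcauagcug
miR-31-3p: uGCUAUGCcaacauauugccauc
Mir31 hairpin: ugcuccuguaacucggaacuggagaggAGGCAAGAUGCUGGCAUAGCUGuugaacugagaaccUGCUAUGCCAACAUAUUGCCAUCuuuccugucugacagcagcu
In the hairpin the capitals mark the mature 5p arm (bases 28 to 49) and the mature 3p arm (bases 64 to 86) of its 106 bases. The 5p arm has 22 bases and lies at chr4:88910614-88910635, and the 3p arm has 23 bases and lies at chr4:88910577-88910599, both on the minus strand. None of the other mature miRNAs in RefSeq's table (1679 names, both arms of miR-31 included) has the seed of either arm. The longest run of bases that any other mature miRNA shares with the 5p arm is 9 and with the 3p arm 8. In GENCODE vM21, also on GRCm38, the hairpin gene Mir31 (chr4:88910557-88910662) overlaps an exon of the long noncoding RNA gene AL805899.1 on the same strand. The nearest protein-coding genes are Ifne, the gene of interferon epsilon, 30355 bases away, and Mtap, a gene of methionine salvage, 226459 bases away on the other side.

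Library totals ranged from 2537167 to 5453539 counts. A large part of each total was miR-21a-5p, which injury induces in many tissues, at 18.6% to 33.2% of counts in day 0 skin, 40.6% to 55.6% at the day 7 wound edge and 13.7% to 19.4% in the diabetic libraries. The TMM scaling factors, which set a typical miRNA to no change, were 0.712 to 0.819 at day 7 and 1.01 to 1.37 in the other libraries, so a scale of total counts and a TMM scale give different fold changes. Scaling by total counts moved the median log2 fold change of all 447 rows from 0.08 to -0.46 where day 7 was compared with day 0, from 0.04 to 0.14 where the diabetic libraries were compared with day 0, and from -0.02 to 0.61 where they were compared with day 7. Upper-quartile scaling moved the first of these medians to -0.12, and leaving miR-21a-5p out of the totals moved the last to -0.13. The edgeR test called 36 miRNAs higher and 21 lower at day 7 against day 0, and the split was 16 higher and 117 lower with total counts, 26 and 34 with the upper quartile, and 30 and 7 when miR-21a-5p was left out of the totals. For the diabetic libraries relative to day 7 the split was 35 higher and 54 lower, 174 and 24 with total counts and 45 and 41 with the upper quartile.

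The guide strand miR-31-5p was present at a moderate level that did not separate the groups. Its read counts were 232, 584 and 191 in day 0 skin, 262, 333 and 77 at the day 7 wound edge, and 725, 505 and 133 in the diabetic libraries, for replicates 1, 2 and 3. On the TMM scale this was 57.9, 105 and 64.7 CPM (counts scaled to a common library size) in day 0 skin, 77.2, 111 and 37.1 CPM at the day 7 wound edge, and 99.3, 93.0 and 45.9 CPM in the diabetic libraries. The ranges of the 3 groups overlapped: replicate 3 was the lowest library at day 7 and in the diabetic libraries, and replicate 2 was the highest at day 0 and at day 7. Group means were 75.7 ± 25.2 CPM in day 0 skin, 75.2 ± 37.2 CPM at the day 7 wound edge and 79.4 ± 29.2 CPM in the diabetic libraries (SD, n = 3 each). Among all rows of a library, ordered by count, miR-31-5p ranked between 157 and 224.

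The passenger strand miR-31-3p was scarcer and had its lowest group mean at day 7 and its highest in the diabetic libraries. Its read counts were 34, 100 and 25 in day 0 skin, 19, 22 and 12 at the day 7 wound edge, and 116, 105 and 38 in the diabetic libraries, for replicates 1, 2 and 3. This was 8.49, 17.9 and 8.46 CPM in day 0 skin, 5.60, 7.36 and 5.78 CPM at the day 7 wound edge, and 15.9, 19.3 and 13.1 CPM in the diabetic libraries. All 3 day 7 libraries lay below all libraries of both other groups, while day 0 replicate 2 lay among the diabetic libraries. Group means were 11.6 ± 5.45 CPM in day 0 skin, 6.24 ± 0.967 CPM at the day 7 wound edge and 16.1 ± 3.12 CPM in the diabetic libraries (SD, n = 3 each). The day 7 values rest on few reads: the exact 95% Poisson interval of the lowest count, 12 in replicate 3, was 6.20 to 21.0 counts, and that of the highest, 22 in replicate 2, was 13.8 to 33.3 counts. These intervals cover counting error only, since reads copied by PCR are not independent molecules. The rank of miR-31-3p among all rows lay between 265 and 370.

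**Figure D1:**
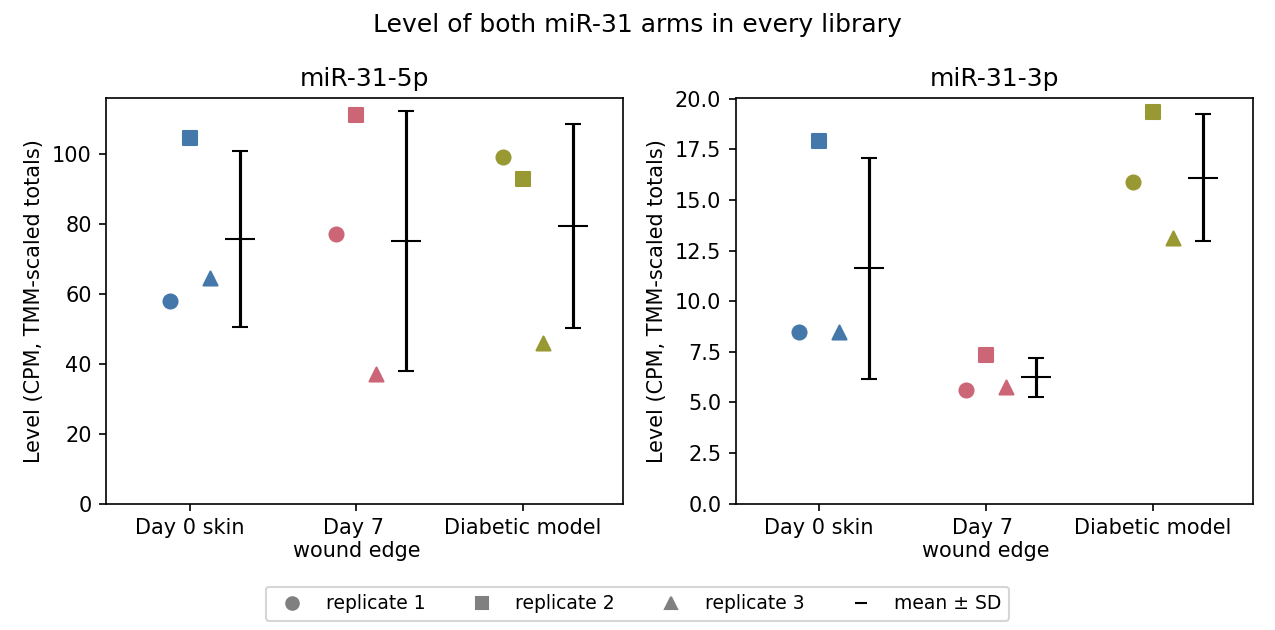
Level of miR-31-5p (left) and miR-31-3p (right) in each of the 9 libraries, in CPM (counts scaled by TMM to a common library size), with symbols for the replicate number and bars for the mean ± SD of each group (n = 3). The 5p groups overlap around means of 75.7, 75.2 and 79.4 CPM, while the 3 day 7 libraries of the 3p arm, at 5.60 to 7.36 CPM, lie below the 6 others.

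The comparison of the day 7 wound edge with day 0 skin asked how each arm differed a week after wounding. miR-31-5p had a log2 fold change of -0.01 ± 0.41 (SE, n = 3 per group, edgeR adjusted p = 0.990), with a 95% interval from -0.91 to 0.89. Its sign turned positive without day 0 replicate 2 (0.23) or day 7 replicate 3 (0.27), with miR-21a-5p left out of the totals (0.04) and when rows had to average 10 CPM or more to be tested (0.04), and no alternative gave a call. It was -0.54 with total counts and -0.63 with limma on the deposited TPM, scales on which the median of all miRNAs was -0.46 and -0.42. miR-31-3p had a log2 fold change of -0.91 ± 0.36 (95% interval -1.70 to -0.12, edgeR adjusted p = 0.131). It did not pass the test, which 12.8% of all tested miRNAs did (8.05% as higher and 4.7% as lower), although its groups did not overlap, as was the case for 30.4% of tested miRNAs. It passed as lower with total counts (-1.43, adjusted p = 0.0178), with upper-quartile scaling (-1.08, 0.0498) and with limma on the deposited TPM (-1.19, 0.0236), where the median of all miRNAs was also lower. Relative to that median its log2 fold change was -0.997 in the TMM fit, -0.96 with total counts, -0.97 with the upper quartile and -0.77 with limma. Without day 0 replicate 2, the highest of its group, the value was -0.51 (edgeR adjusted p = 0.401).

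The diabetic libraries, whose day is not settled, were also compared with non-diabetic day 0 skin, so the model and the day cannot be told apart here. Neither arm passed, and the ranges of both overlapped, where 13.9% of tested miRNAs did not overlap. The log2 fold change was 0.07 ± 0.41 for miR-31-5p (95% interval -0.83 to 0.97, edgeR adjusted p = 0.967) and 0.46 ± 0.33 for miR-31-3p (95% interval -0.26 to 1.18, edgeR adjusted p = 0.731). The sign of miR-31-5p turned negative without day 0 replicate 1 (-0.09) or 3 (-0.04) or diabetic replicate 1 (-0.12) or 2 (-0.05). The miR-31-3p value was 0.90 without day 0 replicate 2 and 0.26 without day 0 replicate 1. Across all miRNAs edgeR called 0 of 447 (0%), with 40 at an unadjusted p under 0.05, while DESeq2 called 5, limma on TPM called 1 and edgeR with the replicate number as a block called 1.

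In the comparison of the diabetic libraries with the day 7 wound edge, miR-31-3p was 2.58-fold higher in the diabetic libraries (log2 fold change 1.37 ± 0.35, SE, n = 3 per group, 95% interval 0.59 to 2.15, edgeR adjusted p = 0.0196). Its ranges did not overlap, as for 38.3% of tested miRNAs, and 19.9% of tested miRNAs were called, 7.83% as higher. Ordered from the largest increase down, it stood at 11 of 447. The call ended without day 7 replicate 1 (1.33, edgeR adjusted p = 0.0703) or diabetic replicate 2 (1.26, 0.0687) and held in 17 of 19 alternatives, and over all 19 the log2 fold change ran from 1.26 to 2.03. miR-31-5p had a log2 fold change of 0.08 ± 0.41 (95% interval -0.82 to 0.98, edgeR adjusted p = 0.934). Its sign turned negative without day 7 replicate 3 (-0.21), diabetic replicate 1 (-0.10) or diabetic replicate 2 (-0.004) and with the filter at 10 CPM (-0.01). It was 0.79 with total counts and 0.76 with limma on TPM, where the median of all miRNAs was 0.61 and 0.56, and neither passed. The 3 comparisons share their groups, so their values are not independent of each other.

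The deposited TPM values, which are counts scaled to the unadjusted library total, gave the same order of the 3p groups. miR-31-3p stood at 12.6 ± 5.01 in day 0 skin, 4.77 ± 0.801 at the day 7 wound edge and 19.4 ± 5.35 in the diabetic libraries (TPM, SD, n = 3 each). The exact two-sided permutation p was 0.1, the lowest possible with 3 libraries a group, both for day 7 with day 0 and for the diabetic libraries with day 7. It was 0.2 for the diabetic libraries with day 0. miR-31-5p stood at 82.7 ± 21.3, 56.6 ± 27.1 and 98.0 ± 46.3 TPM, in the same order of groups. By the same exact permutation test its p was 0.3 for day 7 with day 0 and for the diabetic libraries with day 7, and 0.6 for the diabetic libraries with day 0. On this scale the means of both arms were lowest at day 7, the group with the largest share of miR-21a-5p. In order of level from low to high, no difference between neighbouring groups passed the test in either arm in the TMM fit, and the ends of the order, day 7 and the diabetic libraries, differed in miR-31-3p.

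**Figure D2:**
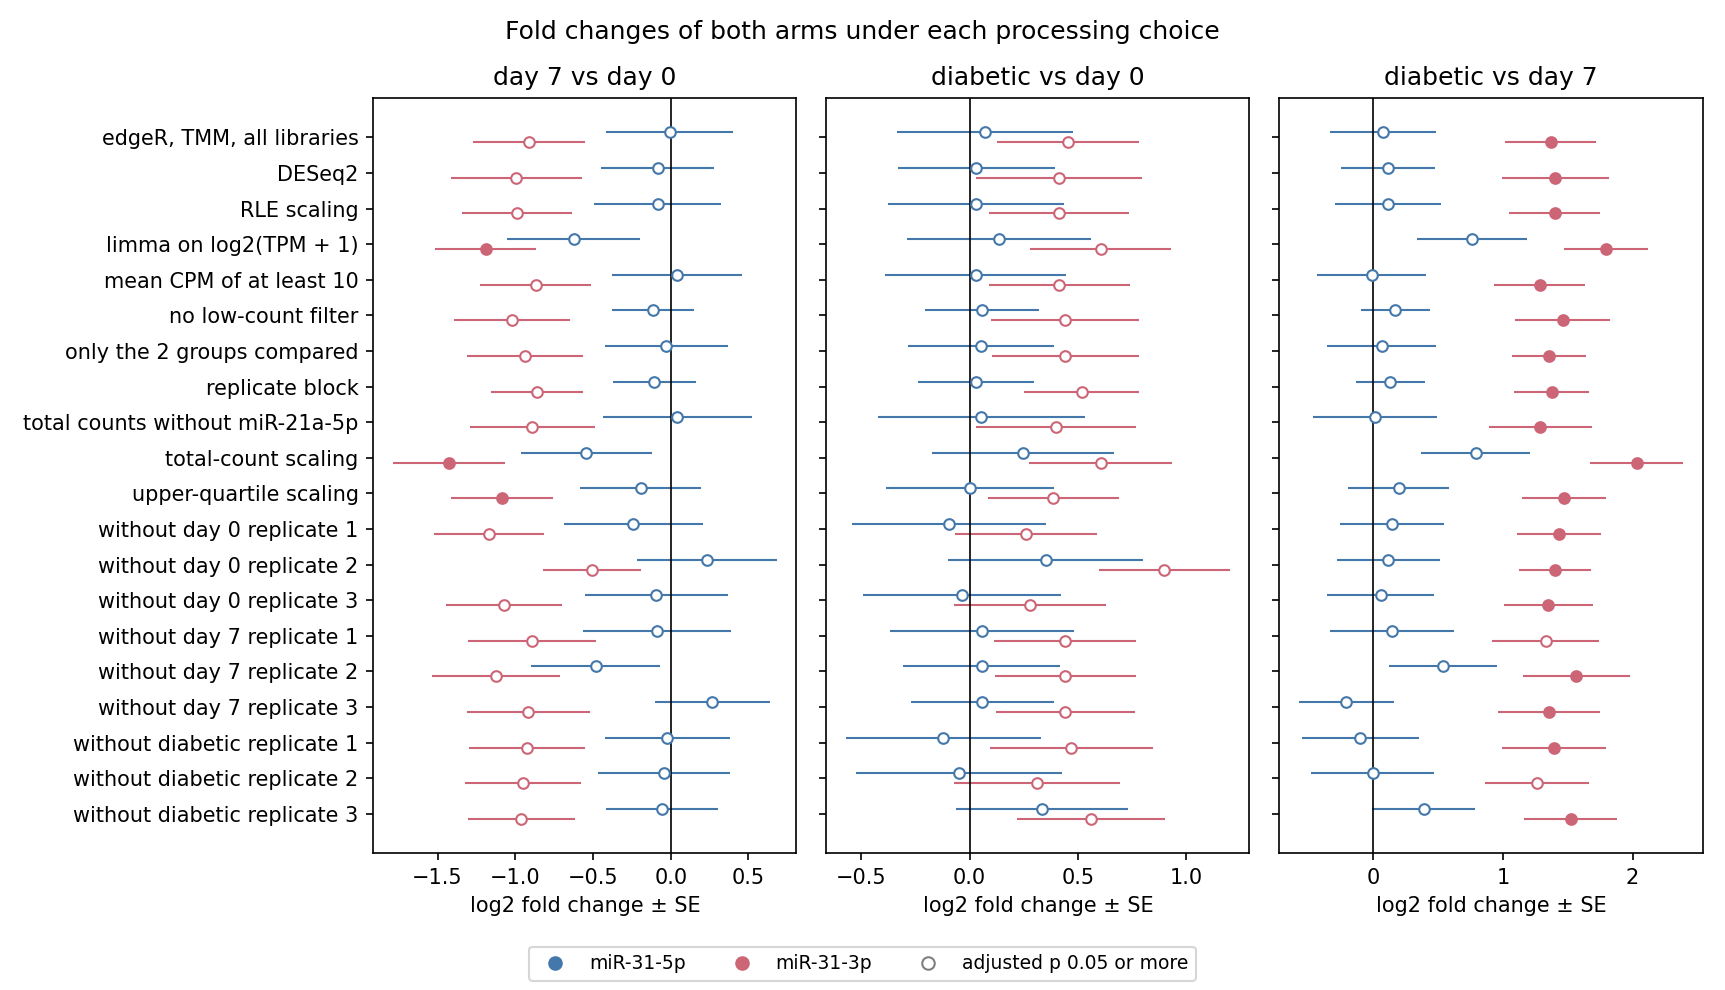
Log2 fold change ± SE (horizontal axis) of miR-31-5p and miR-31-3p in the 3 comparisons, for the edgeR fit with TMM on all libraries and each alternative (rows); filled points have an adjusted p under 0.05. The 3p points for the diabetic libraries against day 7 run from 1.26 to 2.03 and are filled in all rows but those without day 7 replicate 1 and without diabetic replicate 2, while no 5p point is filled.

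The balance of the arms was compared within the hairpin, since both arms come from the same precursor and their ratio does not depend on how libraries are scaled. Each read covers a whole mature strand, so no correction for length was made, but the arms can differ in how well they are ligated, so the ratio is compared between groups and not read as an amount. The 3p arm made up 12.8%, 14.6% and 11.6% of the counts of both arms in day 0 skin, 6.76%, 6.20% and 13.5% at the day 7 wound edge, and 13.8%, 17.2% and 22.2% in the diabetic libraries, for replicates 1, 2 and 3. Day 7 replicates 1 and 2 lay below every other library, while day 7 replicate 3, the library with the fewest miR-31 reads, stood with the day 0 libraries. Its 95% Wilson interval, 7.88% to 22.1% of 89 counts, spanned the whole day 0 group, while those of day 7 replicate 1 (4.37% to 10.3%) and replicate 2 (4.13% to 9.20%) lay below all 3 diabetic intervals. Mean shares were 13.0% ± 1.53 in day 0 skin, 8.81% ± 4.05 at the day 7 wound edge and 17.7% ± 4.24 in the diabetic libraries (SD, n = 3 each).

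**Figure D3:**
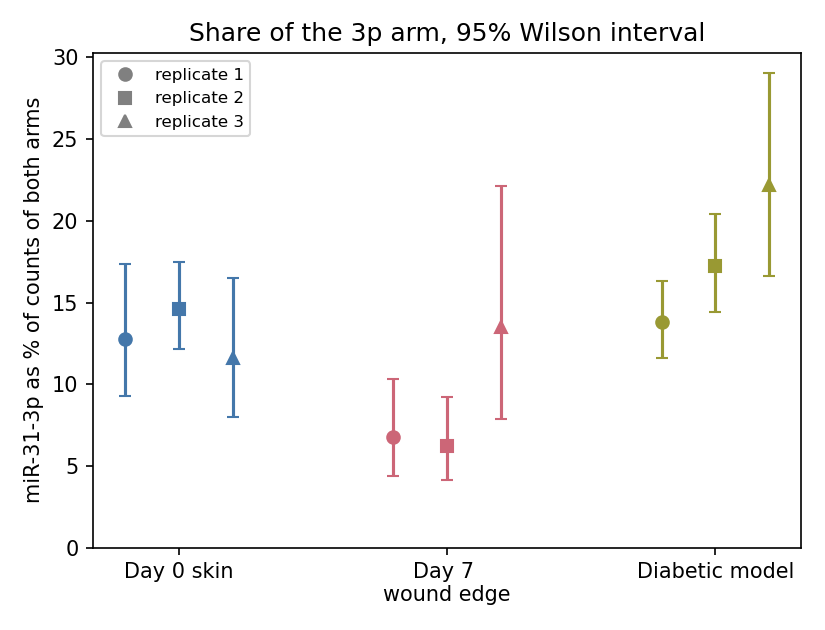
Share of miR-31-3p in the counts of both arms (percent, vertical axis) in each library, with the 95% Wilson interval, which covers counting error only. The lowest values are 6.76% and 6.20% in day 7 replicates 1 and 2, and the highest is 22.2% in diabetic replicate 3.

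The log2 ratio of 3p to 5p counts was tested with limma over the 127 hairpins whose arms both passed the filter. The ratio was 2.24-fold higher in the diabetic libraries than at day 7 (log2 difference 1.16 ± 0.36, SE, n = 3 per group, 95% interval 0.35 to 1.98), with a limma adjusted p of 0.0640, just outside the threshold. In this comparison 9 hairpins passed (7.09%), and miR-31 had the eighth highest difference. The exact two-sided permutation p of this log2 ratio, which has 1 added to each count, was 0.2, where 0.1 is the smallest possible. For the 3p share as counted it was 0.1, a test chosen after the data were seen: the highest day 7 share (13.5%) lay just below the lowest diabetic share (13.8%), and the added count turns the order of these 2 libraries. Ranges of the log2 ratio did not overlap in this comparison for 45 of 127 hairpins (35.4%), and those of miR-31 overlapped. The limma test of the miR-31 ratio passed without day 7 replicate 3 (1.57, limma adjusted p = 0.0300) and when only hairpins with both arms at a mean of at least 10 CPM were tested (1.16, 0.0388), and its adjusted p over all alternatives ran from 0.0300 to 0.201. The call of miR-31-3p beside an uncalled miR-31-5p is therefore not shown by this test to be a difference between the arms.

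The arm ratio at day 7 against day 0 had a log2 difference of -0.67 ± 0.36 (95% interval -1.48 to 0.14, limma adjusted p = 0.353, exact permutation p = 0.3), -1.07 without day 7 replicate 3 and -0.43 without day 7 replicate 2. Here 1 hairpin passed (0.787%), miR-335, named after its value was seen. The ratio in the diabetic libraries against day 0 had a log2 difference of 0.49 ± 0.36 (95% interval -0.32 to 1.31, limma adjusted p = 0.673, exact permutation p = 0.2), where limma called 0 of 127 hairpins (0%), with 15 at an unadjusted p under 0.05. As a description of the hairpin itself, the 5p arm held the larger share in 70 of 127 hairpins, miR-31 among them. The minor arm of miR-31 took 13.2% of the hairpin's counts on average over the 9 libraries, against a median of 10.1% over all 127.

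**Figure D4:**
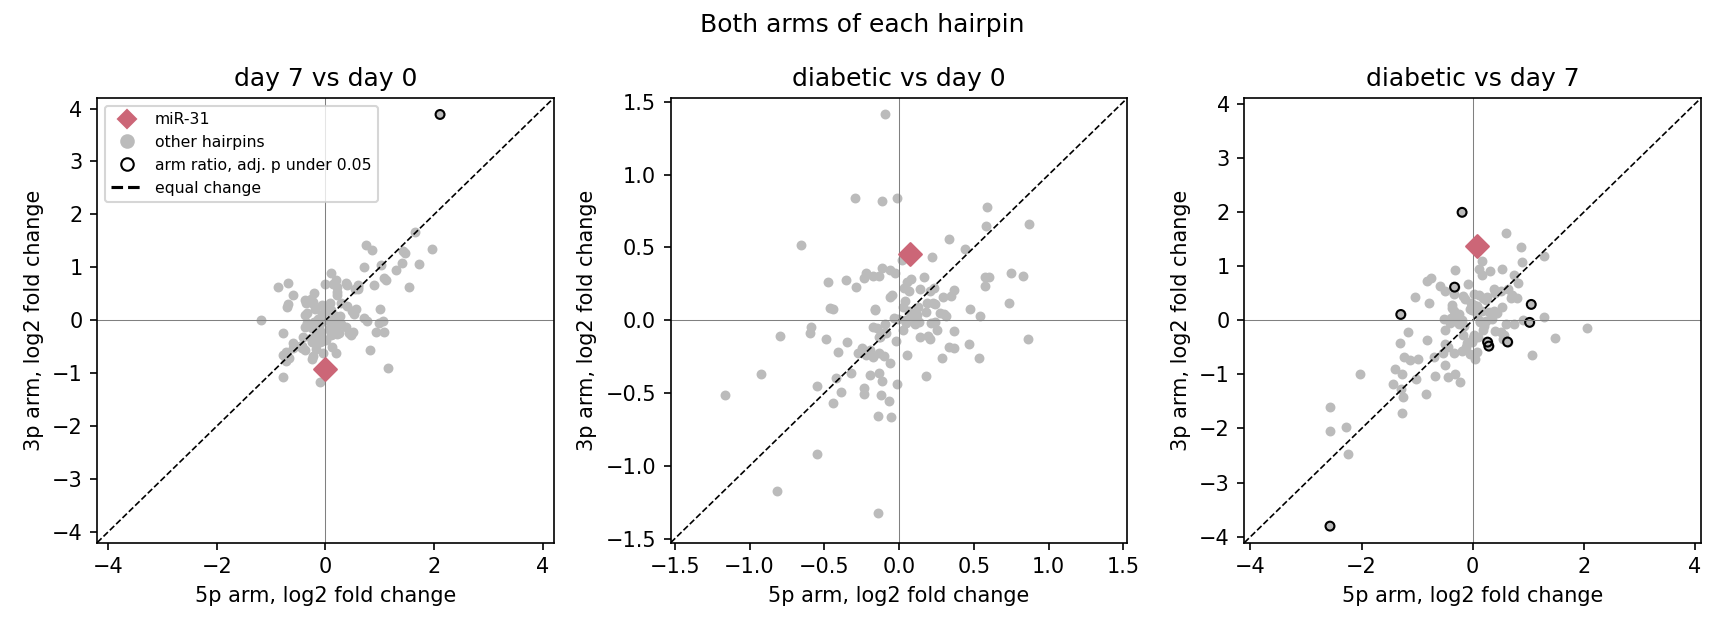
Log2 fold change of the 5p arm (horizontal axis) against that of the 3p arm (vertical axis) for 127 hairpins in the 3 comparisons, with miR-31 as a diamond, hairpins whose arm ratio passed the test as open circles and equal change of both arms as a dashed line. miR-31 lies below the line for day 7 against day 0 (-0.01 and -0.91) and above it for the diabetic libraries against day 7 (0.08 and 1.37), without passing the test of the ratio.

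Lists of keratinocyte and epithelial miRNAs and of miRNAs that respond to inflammation were set beside miR-31, because miR-31 is known both as a keratinocyte miRNA and as an NF-kB target. The first list also holds miR-183-5p, miR-182-5p and miR-96-5p of the miR-183 cluster, which were not among the miRNAs set down as keratinocyte markers. Of 10 keratinocyte and epithelial miRNAs, 5 fell at day 7 against day 0 and none rose, where 4.7% of all tested miRNAs were called lower and 8.05% higher, with a median log2 fold change of -0.63 against 0.08 over all tested miRNAs. The members that fell were miR-205-5p (-0.59, edgeR adjusted p = 0.0499), which supports epidermal progenitors, miR-200a-3p (-0.66) and miR-429-3p (-0.94) of the epithelial miR-200 family, and miR-182-5p (-0.79) and miR-96-5p (-0.81) of the miR-183 cluster. The most abundant member, miR-203-3p, which drives keratinocyte differentiation, stood at -0.24 and did not pass. Of the other miRNAs set down as keratinocyte markers, miR-200b-3p (-0.48), miR-200c-3p (-0.27) and miR-141-3p (-0.65) did not pass either. The value of miR-31-3p in that comparison, -0.91, was within the range of the list, -0.94 to -0.24, and that of miR-31-5p, -0.01, was outside it. The confidence interval of miR-31-5p, -0.91 to 0.89, overlapped most of that range, so these values do not set the arms apart. The number of members that fell was 2 to 7 when a library was left out, with 2 when day 7 replicate 1 or 2 or day 0 replicate 3 was left out, 3 without day 0 replicate 2, and 3 to 9 over the other scalings. The 9 came with total counts, which called 117 of 447 tested miRNAs lower.

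In the diabetic libraries against day 7, 6 of the 10 keratinocyte and epithelial miRNAs were higher and none lower, where 7.83% of all tested miRNAs were called higher and 12.1% lower, with a median log2 difference of 0.77 against -0.02 over all tested miRNAs. Those that passed were miR-200a-3p (0.95), miR-141-3p (0.91), miR-429-3p (1.15), miR-183-5p (0.71), miR-182-5p (0.84) and miR-96-5p (1.07). Of these, miR-200a-3p, miR-141-3p and miR-429-3p had been set down as keratinocyte markers. The other markers set down, miR-203-3p (0.29), miR-205-5p (0.53), miR-200b-3p (0.47) and miR-200c-3p (0.18), did not pass. In this comparison miR-31-3p, at 1.37, lay above the range of the list, 0.18 to 1.15, and miR-31-5p, at 0.08, lay below it. The confidence intervals of both arms, 0.59 to 2.15 for miR-31-3p and -0.82 to 0.98 for miR-31-5p, overlapped that range. The summed level of the list was 72267 to 86759 CPM in day 0 skin, 59813 to 64590 CPM at the day 7 wound edge and 66501 to 94418 CPM in the diabetic libraries, and no member was at 0 in any group. The day 7 libraries were thus lowest in this sum, as they were in miR-31-3p. Most of the sum was miR-203-3p, which passed neither for day 7 with day 0 nor for the diabetic libraries with day 7. Its group means were 53142 CPM in day 0 skin, 44898 CPM at the day 7 wound edge and 55034 CPM in the diabetic libraries. In bulk skin fewer keratinocytes and less of a miRNA per keratinocyte cannot be told apart, and the part of keratinocyte content in the miR-31-3p values was not tested. The number of members higher was 4 without day 7 replicate 1 or diabetic replicate 2, and 5 to 10 over the other scalings. The 10 came with total counts, which called 174 of 447 tested miRNAs higher.

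Of the 8 inflammation-induced miRNAs, 5 rose at day 7 against day 0 and none fell, where 8.05% of all tested miRNAs were called higher and 4.7% lower: miR-21a-5p (1.43) and miR-21a-3p (1.30), miR-146b-5p (1.07), a brake on NF-kB signalling, miR-155-5p (1.05), induced in activated immune cells, and miR-147-3p (1.93), induced by Toll-like receptor signals. The other abundant member, miR-146a-5p, stood at 0.41 and did not pass. The median was 1.06 against 0.08 over all tested miRNAs. The same 5 members were lower in the diabetic libraries than at day 7, where 12.1% of all tested miRNAs were called lower, at -2.24 for miR-21a-5p, -2.47 for miR-21a-3p, -1.27 for miR-146b-5p, -0.75 for miR-155-5p and -2.49 for miR-147-3p. The count of members that rose was 2 with total-count scaling, under which 2 of the 8 log2 fold changes turned negative and 3 members were called lower and 1 turned positive in the diabetic libraries against day 7, and it was 1 without day 7 replicate 1 and 2 without day 0 replicate 2 or day 7 replicate 2. The members that rose include miR-21a-5p, whose share of counts moves the scale of every other miRNA when total counts are used. With total counts, 16 of 447 tested miRNAs were called higher at day 7 against day 0. In the diabetic libraries against day 7, 24 of 447 were called lower on that scale. The level of miR-147-3p was low, at 3.73 ± 2.14 CPM in day 0 skin, 13.9 ± 3.52 CPM at day 7 and 2.71 ± 1.83 CPM in the diabetic libraries (SD).

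Markers of other cell types were present in all groups. The lists also hold miRNAs that were not among those set down as markers. These are miR-223-5p and miR-511-3p (leukocyte), miR-133b-3p (muscle), and miR-199b-5p and miR-214-5p (fibroblast). Of 7 leukocyte miRNAs, 5 rose at day 7 against day 0, where 8.05% of all tested miRNAs were called higher: miR-223-3p (1.68) and miR-223-5p (1.65) of neutrophils and macrophages, miR-142a-3p (1.05) and miR-142a-5p (1.02) of blood cells, and miR-342-3p (1.53). In the diabetic libraries against day 7, miR-223-3p (-2.05), miR-223-5p (-2.57), miR-142a-3p (-1.27), miR-142a-5p (-1.30) and miR-511-3p (-1.61) of macrophages were lower, beside 12.1% of all tested miRNAs. miR-342-3p (-0.14) and miR-150-5p (-0.45) did not pass. Against day 0, miR-342-3p stood at 1.39 in the diabetic libraries (edgeR adjusted p = 0.0569), the only positive value among the 7. The summed leukocyte level was 863 to 1107 CPM in day 0 skin, 1765 to 2366 CPM at the day 7 wound edge and 753 to 940 CPM in the diabetic libraries, so it was highest where miR-31-3p was lowest. The part of leukocyte content in the miR-31-3p values was not tested. With total-count scaling 3 leukocyte miRNAs rose and 1 turned negative at day 7, and 2 turned positive in the diabetic libraries against day 7, where 5 were called lower. On that scale 16 of 447 tested miRNAs were called higher in the first of these comparisons and 24 of 447 lower in the second. In the fibroblast list miR-199b-5p fell at day 7 (-0.87) and was higher in the diabetic libraries than at day 7 (1.49). The fibroblast markers set down, miR-199a-3p (-0.40 and 0.18), miR-199a-5p (-0.07 and -0.34) and miR-214-3p (0.12 and -0.49), did not pass in either. Of these, miR-199a-3p and miR-199a-5p were the most abundant members of the list. With total counts 4 of the 5 fibroblast miRNAs were called lower at day 7 against day 0 and 2 higher in the diabetic libraries against day 7, with all 5 signs alike in each. On that scale 117 of 447 tested miRNAs were called lower in the first of these comparisons and 174 of 447 higher in the second. No muscle or endothelial miRNA passed by edgeR with TMM on all libraries, and miR-1a-3p of striated muscle averaged 63206 CPM. The summed muscle level varied within groups, at 44329 to 62632 CPM in day 0 skin, 50410 to 100730 CPM at day 7 and 30284 to 132624 CPM in the diabetic libraries. In the diabetic libraries against day 7, total-count scaling called 2 of 4 muscle miRNAs and 1 of 2 endothelial miRNAs higher, beside 174 of 447 tested miRNAs. In that comparison 2 muscle miRNAs were also called higher without day 7 replicate 3 or without diabetic replicate 1, beside 37 of 477 and 36 of 452 tested miRNAs. At day 7 against day 0, 1 muscle miRNA was called higher without diabetic replicate 1 or 3 and when miR-21a-5p was left out of the totals. Those settings called 39 of 452, 41 of 473 and 30 of 447 tested miRNAs higher. In the diabetic libraries against day 0, 0 members of any of the 6 lists passed by edgeR with TMM on all libraries, and 1 leukocyte miRNA passed as higher with total counts, the upper quartile or without day 7 replicate 3.

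The rows whose pattern was most like each arm were found by Pearson's r of log2 CPM over the 9 libraries, among the 308 other tested rows with a mean of at least 10 CPM, as a description with no test. The points share libraries, scaling and depth. For miR-31-5p these were miR-298-5p (r = 0.81), miR-221-3p (0.76), miR-540-3p (0.75), miR-455-3p (0.75) and miR-17-5p (0.73), and none of these 5 passed the edgeR test in any of the 3 comparisons. For miR-31-3p they were miR-345-5p (r = 0.91), miR-181c-3p (0.91), miR-450a-5p (0.89), miR-98-5p (0.87), which shares the let-7 seed, and miR-96-5p (0.86), of the miR-183 cluster. Like miR-31-3p these had their lowest group mean at day 7, for example 13.6 CPM against 21.7 CPM at day 0 and 32.8 CPM in the diabetic libraries for miR-345-5p. The r of the arms of miR-31 with each other was 0.44, which put miR-31-3p at rank 36 of 308 for miR-31-5p, and miR-31-5p at rank 72 of 308 for miR-31-3p. The rows named above were picked for the highest r, so their likeness in group means follows from that choice. miR-31-3p had only 12 to 22 reads a library at day 7, and the part of counting error in r was not tested.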

How the data were processed

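Small RNA from 9 mouse back skin samples was sequenced as single-end reads. The authors deposited 1 table that holds, per the file headers, the raw count and the TPM of every miRNA in every library. A comparison of these columns showed that the deposited TPM is the count divided by the library's summed counts and rescaled, with no term for length. The submitters' processing notes name Bowtie, DESeq 3.0.3 and the build mm9, with no role for any. How reads were trimmed and how those matching several miRNAs were counted is not given in the sources used here. For the diabetic libraries, table columns named T0 were matched to samples titled T7 through their letter and replicate number.

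In R 4.3.3, edgeR 4.0.16 (quasi-likelihood F test) was run on the counts with TMM scaling and 1 fit of all 9 libraries with group as the term, after filterByExpr (minimum count 10, minimum total 15), which kept 447 rows. A call is a Benjamini-Hochberg adjusted p under 0.05 over all of these. Standard errors are from the F statistic. CPM values use TMM-scaled totals, and likeness used their log2 with 2 added as a prior count. Arm ratios, log2((3p + 1)/(5p + 1)), were tested with limma 3.58.1. DESeq2 1.42.0 and limma on log2(TPM + 1) were alternatives, as were other scalings, other filters, fits of fewer libraries and a replicate block. Tests were run on simulated counts first.

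The members and lists were chosen with earlier results of these data known. Lists under other settings, and the permutation test of the 3p share, were added after the data were seen. Named miRNAs are both arms, the 5 rows most like each, and of each list the most abundant members and those past the test. Between replicates of a group, chi-square divided by its degrees of freedom was 155 to 1291, so none was a repeat deposit within its group. Libraries with the same replicate number deviated from their group means together in each of the 9 pairs (r from 0.102 to 0.484, above the limit of 0.1 set for this). This rests on the data, as the labels name no shared animal. The pairs of day 7 with diabetic libraries had r from 0.381 to 0.443. Replicate 3 had the smallest total in each group, and what libraries of the same number share was not tested.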

Additional observations from a re-analysis of the deposited data

How the results depend on the processing

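Of 19 alternatives, 17 kept the call of miR-31-3p in the diabetic libraries against day 7, and leaving out single libraries gave log2 fold changes from 1.26 to 1.57. For day 7 against day 0, miR-31-3p gained a call with total counts (-1.43), the upper quartile (-1.08) and limma on TPM (-1.19), and leaving out libraries gave -1.17 to -0.51. For the diabetic libraries against day 0 it ran from 0.26 to 0.90 with no call. miR-31-5p gained no call in any comparison. Its sign turned at day 7 against day 0 with total counts without miR-21a-5p (0.0423) and a mean of at least 10 CPM (0.0417), and in the diabetic libraries against day 7 with that filter (-0.0137). Leaving out libraries gave it -0.48 to 0.27, -0.12 to 0.35 and -0.21 to 0.54 for day 7 with day 0, for the diabetic libraries with day 0 and for those with day 7, and over all 19 alternatives the first ran from -0.63 (limma on TPM) to 0.27 and the last from -0.21 to 0.79 (total counts). The arm ratio in the diabetic libraries against day 7 gained a call with the filter at 10 CPM (1.16, fewer hairpins tested) and without day 7 replicate 3, with a range of 0.93 to 1.57 when libraries were left out; the other ratios ran from -1.07 to -0.43 and from 0.27 to 0.70.

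With the replicate number as a block no call of either arm or of the ratio changed: miR-31-3p stood at 1.38 in the diabetic libraries against day 7 (edgeR adjusted p = 0.00533) and at -0.86 for day 7 against day 0 (0.0752). The number of miRNAs called at day 7 against day 0 was 57, and 133 with total counts, 139 with limma on TPM, 37 with total counts without miR-21a-5p and 19 to 68 without a library (19 and 23 without day 7 replicates 1 and 2, 27 and 22 without day 0 replicates 2 and 3). In the diabetic libraries against day 0 it was 0, and 1 with total counts, the upper quartile, limma, the filter at 10 CPM or the block, 5 with DESeq2, 10 with no filter and 0 to 2 without a library. In the diabetic libraries against day 7 it was 89, and 198 with total counts, 194 with limma and 49 to 101 without a library (49 and 59 without day 7 replicates 1 and 2, 52 without diabetic replicate 2). The cause of these differences was not tested. Among the values of both arms, those of miR-31-3p at day 7 rested on the fewest reads, with 12 to 22 reads a library.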
